A study of Mus musculus with 88 samples.

Results

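The 10 genes described here encode CDK1, its cyclin B partners and the kinases and phosphatases that control them at the resumption of meiosis: Cdk1, Ccnb1, Ccnb2, Ccnb3, Cdc25a, Cdc25b, Wee2, Pkmyt1, Plk1 and Mos. Each was matched to 1 feature of the 38540 in the count table. Ccnb1, Cdc25a and Mos were matched by name in the paper's supplementary list of transcripts that differed in abundance across its oocyte clusters. The others were matched by the same-strand GENCODE M21 gene whose span overlapped the feature most. Their RNA was measured by scM&T-seq, in which oligo-dT beads take the polyadenylated RNA out of the lysate of 1 oocyte for a Smart-seq2 library and the DNA is kept for methylome sequencing. The samples were 88 fully grown germinal vesicle (GV) oocytes of virgin C57BL/6Babr mice, 42 from young females of 12 weeks and 46 from old females of 44 to 54 weeks. No genetic change or treatment is named for either group.

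A GV oocyte is held in prophase of the first meiotic division because CDK1 bound to cyclin B is kept inactive by inhibitory phosphorylation. WEE2 and PKMYT1 add these phosphates, the CDC25 phosphatases remove them, PLK1 reinforces the switch, and MOS, which starts the oocyte's MAP kinase cascade, is made once meiosis resumes. Fully grown oocytes stop transcribing as their chromatin closes around the nucleolus, so these proteins are made from stored mRNA, much of it held with a short poly(A) tail and translated later through cytoplasmic polyadenylation elements (CPEs) near the polyadenylation signal.

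The 3′ ends of these mRNAs are shown because oligo-dT capture starts at the poly(A) tail and because translation of cyclin B mRNA is controlled there. The sequences are from the longest protein-coding GENCODE M21 transcript of each gene on GRCm38, are written 5′ to 3′ on the strand of the gene, and lie in the 3′ UTR within 1 exon. Capitals mark a CPE spelled TTTTAT or TTTTAAT and a polyadenylation signal spelled AATAAA or ATTAAA. Ccnb1, Ccnb2, Ccnb3 and Wee2 are shown at the CPE nearest the 3′ end, and Mos and Cdc25b, which hold neither CPE spelling in their 3′ UTR, at the last 30 bases.
Ccnb1, chr13:100778772-100778801, minus strand: atttgctgTTTTAATttatacatctgatat
Ccnb2, chr9:70407856-70407885, minus strand: tgtatgtaTTTTATtctagtttacatcaca
Ccnb3, chrX:6979698-6979727, minus strand: gaaattacTTTTATgaaagaagagaaattg
Wee2, chr6:40466784-40466813, plus strand: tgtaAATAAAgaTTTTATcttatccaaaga
Mos, chr4:3870657-3870686, minus strand: ttttaggaAATAAAgttaccacgaacttca
Cdc25b, chr2:131198466-131198495, plus strand: ccttggttcAATAAAgcactgagcaagttg
In Wee2 the CPE shown began 18 bases from the annotated end and followed the signal, and another, TTTTAAT, lay before the signal at 46 bases, whereas in Ccnb3, Ccnb1 and Ccnb2 it began 68, 144 and 186 bases from the end. Of the 8 members with a 3′ UTR of at least 200 bases, 4 held a CPE in the last 200 bases, against 28.2% of 17785 protein-coding genes. All of these 8 members held a polyadenylation signal in the last 50 bases, against 75.8% of those genes. So did Pkmyt1 and Mos, whose 3′ UTRs are shorter, at 124 and 126 bases. Only the sense strand was searched, the 2 CPE spellings cannot begin at the same base, TTTTAAT can overlap AATAAA, and a match is a description of the letters and not a functional site.

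Configuration, the paper's prediction for each oocyte, is either surrounded nucleolus (SN), the more mature form, or non-surrounded nucleolus (NSN). The prediction used RNA of these very oocytes and is therefore not independent of the levels below. It is given for 87 oocytes, which are 30 young NSN, 12 young SN, 37 old NSN and 8 old SN, and these were compared. Total counts were 1579196 to 8231046 in young and 976456 to 5448310 in old oocytes, with the old sequenced less deeply (medians 3002989 and 2379884). Of 10 oocyte markers 9 had a feature, and they summed to 14291 to 23651 CPM, the count scaled to a total of 1000000, in young and 10429 to 22406 CPM in old oocytes. Of 12 granulosa and cumulus genes 10 had a feature, and they summed to 31.8 to 93.7 and 26.95 to 126 CPM. Foxl2, which defines granulosa cells, was the lowest of them at 0.0450 and 0.0177 CPM. The highest were Nr5a2 at 26.2 and 25.8 CPM and Kitl at 12.1 and 11.3 CPM, with counts in all 87 oocytes. Of 5 blood and immune genes 4 had a feature, with Hbb-bs and Hba-a1 at 0 in all 87 oocytes, and they reached 2.47 CPM in young oocytes and 48.6 CPM in 1 old NSN oocyte. Of 5 stroma and theca genes 4 had a feature, with Col1a1 at 0, and they reached 3.85 and 7.60 CPM.

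Which oocytes came from the same mouse is not in the labels, so each group counts as 1 sample, differences have no replicate check and no test was run. Levels are CPM of the pooled counts of a group, with 95% Poisson intervals. Ratios have exact binomial intervals, and both cover counting error only, since reads without molecular identifiers are not independent molecules. Ranges and SDs describe single oocytes. CPM is a share of the captured RNA, so the amount per oocyte is not known.

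The features of several members can hold reads of another gene or differ in span from their own. The Ccnb1 transcript shares 28.6% of its 100-base windows with other annotated genes, Ccnb1-ps among them, and Plk1 shares 3.62%. Pkmyt1 overlaps Paqr4 on the other strand by 544 bases, Paqr4 stood at 57.8 CPM over the 87 oocytes, above Pkmyt1 itself, and whether counting used strand is not given in the sources used here, so Pkmyt1 is uncertain. The Cdc25a feature overlaps an opposite-strand feature at 4.41 CPM, and those on the other strand of Plk1, Mos, Ccnb2 and Cdk1 stood at or below 1.57 CPM. The Cdk1 feature ends 3178 bases before the annotated 3′ end of the gene, and the Mos feature spans 14411 bases around a gene of 1449 bases. The Ccnb3, Cdc25b and Wee2 features also extend past the annotated gene, and the Wee2 feature begins inside it.

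Cdk1 was read from TCONS_00012551 (chr10:69338324-69369387, minus strand). The cyclins were Ccnb1 from TCONS_00031091 (chr13:100778650-100786627, minus), Ccnb2 from TCONS_00106515 (chr9:70407683-70421610, minus) and Ccnb3 from TCONS_00110607 (chrX:6979575-7079955, minus). The phosphatases were Cdc25a from TCONS_00104403 (chr9:109874733-109893888, plus) and Cdc25b from TCONS_00057928 (chr2:131185922-131201522, plus). The inhibitory kinases were Wee2 from TCONS_00084356 (chr6:40442201-40470864, plus) and Pkmyt1 from TCONS_00045144 (chr17:23725891-23736729, plus). Plk1 was read from TCONS_00092019 (chr7:122159308-122169879, plus) and Mos from TCONS_00072599 (chr4:3860066-3874476, minus), all on GRCm38.

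All 10 genes had counts in each of the 87 oocytes, from 22 counts for Pkmyt1 to 10199 for Ccnb1. Per kilobase of the longest transcript, over the 87 oocytes, the levels ran in the order Mos, Ccnb1, Wee2, Plk1, Ccnb2, Cdk1, Cdc25b, Cdc25a, Ccnb3 and Pkmyt1, from 582 to 16.9 CPM per kb. Cyclin B1 stood at 509 CPM per kb, while cyclin B2 stood at 74.8 and cyclin B3 at 19.4. WEE2, the oocyte's inhibitory kinase, stood at 202 and PKMYT1 at 16.9. The CDC25 phosphatases were close to each other at 29.03 for Cdc25b and 25.4 for Cdc25a.

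By these lengths the order was the same in all 87 oocytes from Ccnb1 over Wee2, through Plk1 and Ccnb2, to Cdk1. It was less fixed at the ends, since Mos lay above Ccnb1 in 70 of 87 oocytes, Cdc25b above Cdc25a in 55 and Ccnb3 above Pkmyt1 in 52. The Cdk1 level was divided by 4375 bases, of which the feature leaves out 3178. A shorter annotated Cdk1 transcript ends where the feature ends. The place of Cdk1 below Ccnb2 therefore depends on the length used and is not settled by the count of oocytes. For Mos, Ccnb3, Cdc25b and Wee2 the length counted over may differ from the annotated transcript, so their places are less certain.

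**Figure D1:**
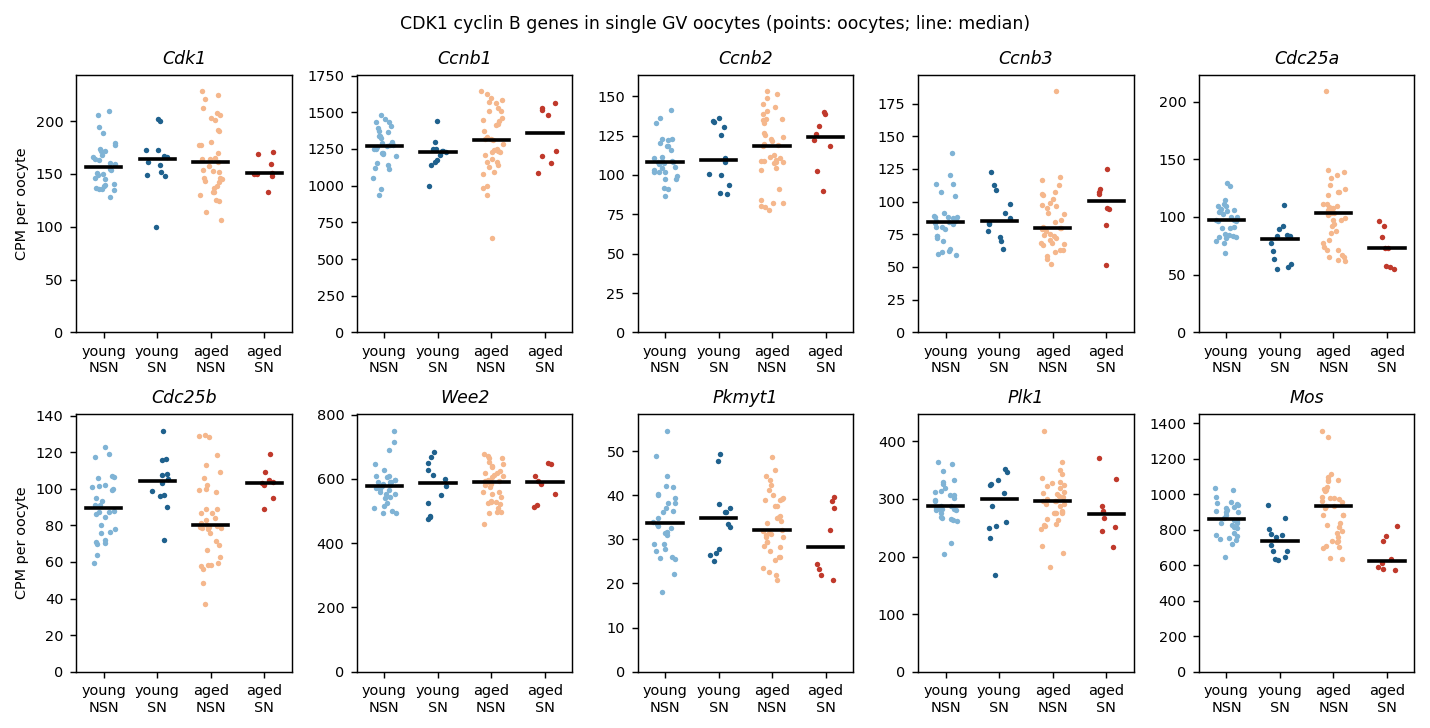
CPM (vertical axes, starting at 0) of each of the 10 genes in single oocytes, in the groups young NSN (30), young SN (12), old NSN (37) and old SN (8); a point is an oocyte and the line is the median. The groups overlap for every gene, and the old SN oocytes lie at or below 96.6 CPM for Cdc25a and at or below 819 CPM for Mos.

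The first question was whether the machinery of meiotic resumption differed with maternal age, and the levels in young and old oocytes were close for all 10 genes. Cdk1, the catalytic subunit, stood at 159 CPM in both (intervals 157 to 162 in each), and Wee2 at 583 CPM in young and 581 CPM in old oocytes. Ccnb1 stood at 1246 CPM in young and 1293 CPM in old oocytes, and Cdc25b at 92.9 and 85.8 CPM. No member passed a log2 ratio of 0.32 in either direction, the size used here to call a difference, where 4.51% of 12408 features with a mean count of at least 10 did. The log2 ratios, old over young, ran from -0.12 for Cdc25b to 0.07 for Cdc25a, with a median of 0.02 for the members and -0.01 for all features. Under the 16 other settings no member passed log2 0.32 in size, but some directions changed. Cdc25a ran from -0.04 to 0.28, Ccnb3 from -0.11 to 0.18 and Plk1 from -0.12 to 0.09. The Cdk1 and Wee2 values also changed sign.

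Cdc25b, the phosphatase that starts the activation of CDK1 in oocytes, had the lowest ratio. It ranged from 59.7 to 132 CPM in young oocytes (median 95.6) and from 36.8 to 129.6 CPM in old oocytes (median 86.7). The ranges overlapped through most of their width, and 17 of 45 old oocytes lay above the young median. The log2 ratio was -0.12 (-0.15 to -0.08).

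Ccnb1 ranged from 937 to 1484 CPM in young oocytes (median 1250.3) and from 647 to 1642 CPM in old oocytes (median 1313). The old range extended past the young range on both sides, and 24 of 45 old oocytes lay above the young median. The log2 ratio was 0.05 (0.04 to 0.06).

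Ccnb2, which can stand in for cyclin B1 in oocytes, ranged from 86.5 to 141 CPM in young oocytes (median 108) and from 77.9 to 153 CPM in old oocytes (median 119). Of the old oocytes 31 of 45 lay above the young median, more than for any other member, and the log2 ratio was 0.07 (0.03 to 0.10). Wee2 ranged from 475 to 750.2 CPM in young (median 579) and from 460.4 to 679 CPM in old oocytes (median 592). Its old range was narrower than its young range, as was that of Pkmyt1.

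The remaining members overlapped through most of their ranges. Cdk1 ranged from 99.9 to 209 CPM in young (median 159.6) and from 106 to 228 CPM in old oocytes (median 158). Plk1 ranged from 168 to 364 CPM (median 288) and from 181 to 419 CPM (median 290.5) in the same order. Ccnb3 ranged from 59.0 to 137 CPM in young (median 84.7) and from 51.8 to 184 CPM in old oocytes (median 82.2), and its highest value, in old NSN oocyte 41A, stood apart from the young range. Pkmyt1, the lowest member, ranged from 18.0 to 54.6 CPM (median 33.6) and from 20.8 to 48.7 CPM (median 32.0). Cdc25a and Mos are given by configuration below, where they differed more.

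The numbers in the oocyte names form 6 unbroken runs, 3 from young and 3 from old females, and the labels do not say what a run is. For 0 of the 10 members did the levels of the 3 old runs all lie beyond those of the 3 young runs, where this held for 13.3% of features. Mos stood at 792, 895 and 937 CPM in the old runs and at 798, 833 and 851 CPM in the young runs, and Cdc25a at 74.7, 108 and 110.1 CPM in the old runs and at 81.8, 84.2 and 104.8 CPM in the young runs.

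Within 1 configuration the ages were again close. Among NSN oocytes no member passed log2 0.32 in size (5.89% of features did), and the log2 ratios ran from -0.11 for Cdc25b to 0.08 for Ccnb2. Among SN oocytes, where 16% of features (1985 of 12408) passed, no member did either. There Pkmyt1, with log2 -0.27 (-0.40 to -0.13), was the lowest and Ccnb3, with 0.17 (0.09 to 0.25), the highest. Pkmyt1 ranged from 25.1 to 49.4 CPM in the 12 young SN oocytes (median 34.8) and from 20.8 to 39.5 CPM in the 8 old SN oocytes (median 28.2). These ranges overlapped, and the value rests on 629 counts in old SN oocytes. It passed that size in oocytes with the suffix A (-0.38), without the old run 41 to 48 (-0.43), without the young run 33 to 39 (-0.45) and without old SN oocyte 41 or 47 (-0.35 and -0.33), and it was above 0 under 1 of 34 settings. The overlap with Paqr4 given above touches this value too, and its part in it was not tested.

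**Figure D2:**
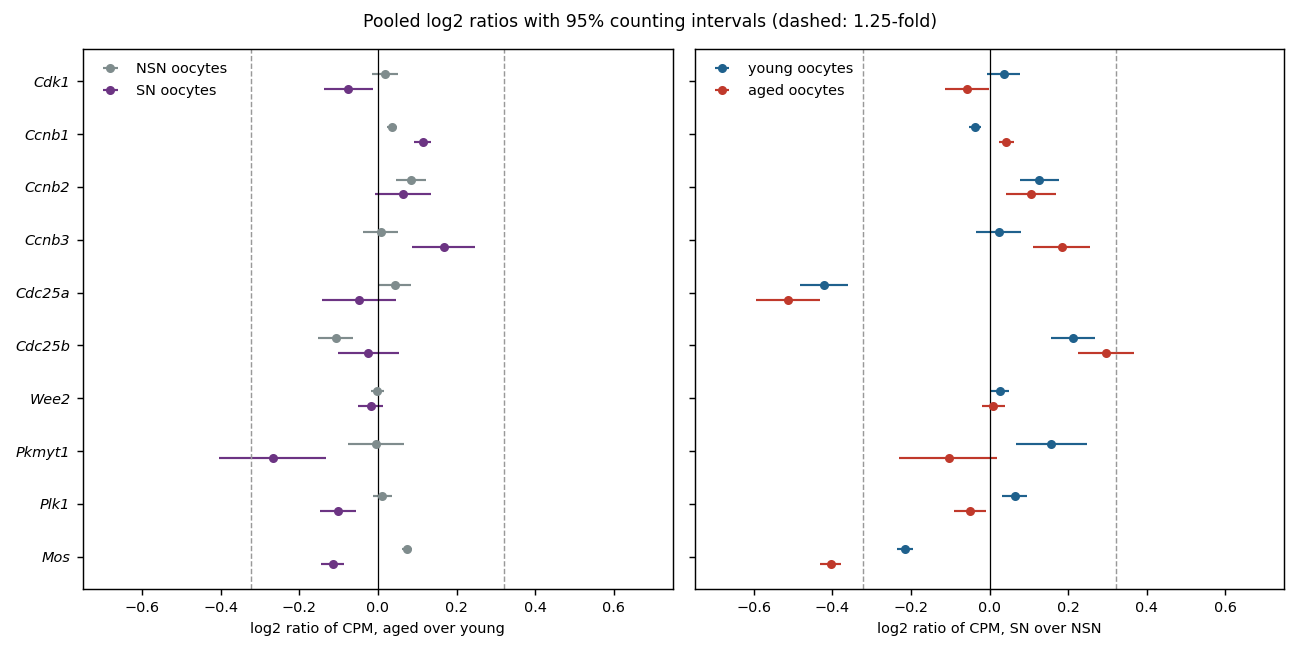
Log2 ratios of pooled CPM (horizontal axes) of the 10 genes, old over young within NSN and SN oocytes (left) and SN over NSN within young and old oocytes (right), with 95% counting intervals; dashed lines mark log2 0.32 either way, the size used to call a difference. Age ratios lie inside the lines, while in SN against NSN Cdc25a lies outside at both ages (-0.42 and -0.51) and Mos in old oocytes (-0.40).

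The second comparison was between predicted configurations, since SN is the more mature form. The paper considers it likely that its expression-based classes differ from the true chromatin state. The largest differences among the members at both ages were those of Cdc25a and Mos, which were lower in SN oocytes, and of Cdc25b, which was higher. In young oocytes 1 member, Cdc25a, passed log2 0.32 in size, where 15.3% of features did and 4.38% in the lower direction. In old oocytes 2 members, Cdc25a and Mos, passed it, where 34.7% did and 14.7% in the lower direction. Counted in either direction, these are smaller shares than those of all features. The other 7 genes had log2 ratios between -0.10 and 0.18, with a median over the 10 members of 0.03 in young and -0.02 in old oocytes.

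Cdc25a, a phosphatase that acts on CDK1 in the meiotic divisions, ranged from 68.9 to 129.5 CPM in young NSN oocytes (median 97.4) and from 54.7 to 110.2 CPM in young SN oocytes (median 80.5). In old NSN oocytes it ranged from 61.6 to 209 CPM (median 103) and in old SN oocytes from 55.3 to 96.6 CPM (median 73.3). The ranges overlapped, but 11 of 12 young and 8 of 8 old SN oocytes lay below the NSN median of their age, and 4 young and 3 old SN oocytes lay below the lowest NSN oocyte.

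The Cdc25a log2 ratio, SN over NSN, was -0.42 (-0.48 to -0.36) in young and -0.51 (-0.59 to -0.43) in old oocytes. Young SN oocyte 24A, the deepest with 8231046 counts, stood at 59.5 CPM, and without it the young value was -0.35. With every oocyte thinned to 900000 counts it was -0.25, from medians over oocytes it was -0.27, and without the young run 17 to 24 it was -0.32, all short of the size called. The old value was -0.28 in the old oocytes named with an A and stayed past log2 0.32 in size under the other 21 settings. Within single runs Cdc25a was lower in SN oocytes in 5 of 6 runs, the exception being young run 1 to 7, which holds 1 SN oocyte, at 0.08.

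Mos ranged from 648 to 1038 CPM in young NSN oocytes (median 862) and from 632 to 942 CPM in young SN oocytes (median 738). In old NSN oocytes it ranged from 633 to 1359 CPM (median 935) and in old SN oocytes from 574 to 819 CPM (median 624). All 8 old SN oocytes lay below the old NSN median and 5 of them below the lowest old NSN oocyte, whereas 12 of 37 old NSN oocytes lay below the highest old SN oocyte.

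The Mos log2 ratio was -0.22 (-0.23 to -0.20) in young and -0.40 (-0.43 to -0.38) in old oocytes. It was below 0 under all 26 other settings in young and all 22 in old oocytes. Without the old run 25 to 31 the old value was -0.31, short of the size called. Within single runs it was below 0 in 5 of 6, with 0.15 in young run 1 to 7.

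Cdc25b went the other way. It ranged from 59.7 to 123 CPM in young NSN oocytes (median 89.6) and from 72.1 to 132 CPM in young SN oocytes (median 104). In old NSN oocytes it ranged from 36.8 to 129.6 CPM (median 80.0) and in old SN oocytes from 89.2 to 119 CPM (median 103). Of the SN oocytes 11 of 12 young and 8 of 8 old lay above the NSN median of their age, and 26 of 37 old NSN oocytes lay below the lowest old SN oocyte.

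The Cdc25b log2 ratio was 0.21 (0.16 to 0.27) in young and 0.30 (0.22 to 0.37) in old oocytes, both short of the size called. It was above 0 within each of the 6 runs, from 0.09 to 0.43, as for 12.0% of features. The old value passed log2 0.32 under 5 of 22 settings, at 0.41 without the old run 9 to 16 and 0.35 without old SN oocyte 41 among them, and the young value did at 0.38 in the oocytes named without an A.

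Cdk1 and the cyclins were close between configurations, with Cdk1 at 158 CPM in young NSN, 162 in young SN, 160.4 in old NSN and 154 in old SN oocytes. In the same order Ccnb1 stood at 1255, 1224, 1287 and 1325 CPM, and Wee2 at 580.3, 591, 579.9 and 584 CPM. Ccnb2 was higher in SN oocytes at both ages, by 0.13 and 0.11 on the log2 scale, but within single runs it was below 0 in 3 of 6, from -0.31 to 0.30, so the direction did not hold within runs. Ccnb3, the cyclin B that promotes the metaphase to anaphase step of the first division, differed by 0.02 in young and 0.18 in old oocytes, the latter being 0.34 from medians over oocytes. The Plk1 difference had opposite signs at the ages, 0.06 and -0.05, as had that of Pkmyt1, 0.16 and -0.10. Without the young run 33 to 39 the young Pkmyt1 value was 0.35, past the size called.

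Ratios of counts within an oocyte need no scaling by depth and were taken for pairs that act together or against each other. They are ratios of counts and not per length. The log2 ratio of Ccnb1 to Cdk1 had a median of 2.90 ± 0.22 (SD over 42 oocytes) in young and 3.04 ± 0.34 (SD over 45 oocytes) in old oocytes. The lowest value, 1.76, was in old oocyte 27, which also had the lowest Ccnb1 level, 647 CPM. Ccnb2 over Ccnb1 was -3.50 ± 0.20 in young and -3.47 ± 0.25 in old oocytes. Both differences between ages are below the SD over oocytes.

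Cdc25b was also set against each inhibitory kinase, and both ratios were higher in SN oocytes of both ages by the medians over oocytes. This holds for Cdc25b alone, since Cdc25a was lower in SN oocytes. Cdc25b over Wee2 had medians of -2.73 in young NSN and -2.43 in young SN oocytes, and of -2.85 in old NSN and -2.55 in old SN oocytes. Cdc25b over Pkmyt1 had medians of 1.40 and 1.65 in young and of 1.28 and 1.86 in old oocytes, in the same order. The SDs within these groups were 0.16 to 0.40 for the first ratio and 0.30 to 0.46 for the second. From summed counts the second difference in young oocytes was 0.06.

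The ratio of the phosphatases Cdc25a and Cdc25b was chosen after their values had been seen. Cdc25a had more counts than Cdc25b in 16 of 30 young NSN and 27 of 37 old NSN oocytes, but in 1 of 12 young SN and 1 of 8 old SN oocytes. The median log2 ratio was 0.04 in young NSN, 0.27 in old NSN, -0.35 in young SN and -0.55 in old SN oocytes, with SDs of 0.31 to 0.57.

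Spread among oocytes was then compared between ages as dispersion, the variance of depth-scaled counts beyond counting noise divided by the squared mean. It was higher in old oocytes for 8 of 10 members, and 74.0% of 12377 features were also higher. Cdc25a had 0.0324 in young and 0.0861 in old oocytes, Mos 0.0167 and 0.0459, and Ccnb1 0.0102 and 0.0266. Wee2, with 0.0115 in young and 0.00816 in old oocytes, and Pkmyt1, with 0.0411 and 0.0358, went the other way. By the paper's methods the old group drew on a larger number of females. Their ages ran from 44 to 54 weeks, while the young females were all of 12 weeks. Oocytes are not assigned to females, so the part of differences between females in the dispersion was not tested.

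The median log2 ratio of dispersion, old over young, was 0.88 for the members and 0.45 for all features. Features of similar mean count had medians of 0.41 to 0.58, and thinning every oocyte to 900000 counts brought the members to 0.58 and all features to 0.46. Among NSN oocytes alone the values were 1.18 and 0.52, and within runs 0.71 and 0.42. Wee2 was among the least variable old features, with 3.02% of 464 features whose mean count was at least 1000 lying below it. Cdc25a was among the more variable, with 90.6% of 4902 features whose mean count was 100 to 1000 lying below it.

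**Figure D3:**
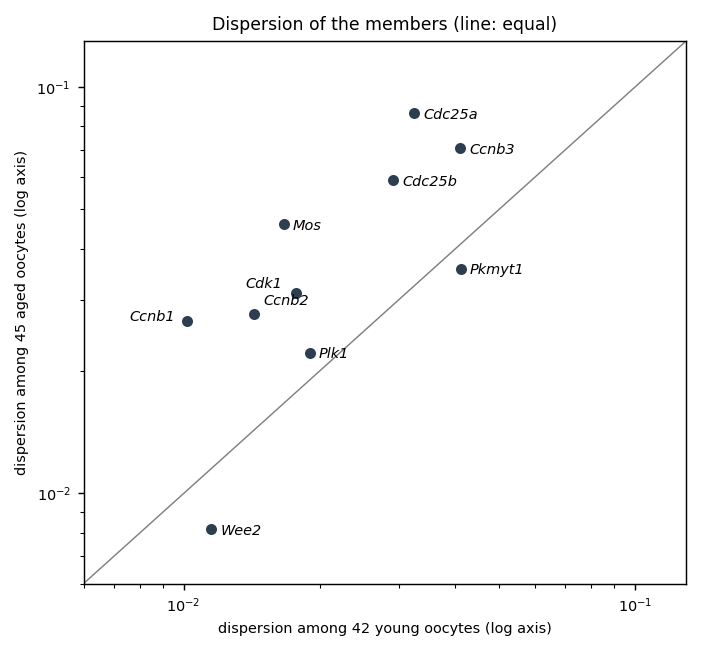
Dispersion of each of the 10 genes among 42 young (horizontal) and 45 old (vertical) oocytes, on log axes; the line marks equal values. Wee2 and Pkmyt1 lie below the line and the other 8 genes above it, with Cdc25a the highest at 0.0861 in old oocytes.

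The members did not vary as 1 block over oocytes. Over the 45 pairs the median Pearson's r of log2(CPM + 1) was 0.15 among 30 young NSN and 0.08 among 37 old NSN oocytes. These are descriptions, since oocytes share runs and mice that are not named, and depth enters each value. Plk1 and Cdc25b correlated with the log2 total count at -0.53 and -0.47 among young NSN oocytes, and at 0.00 and -0.13 among old NSN oocytes. Ccnb3 correlated with it at 0.40 and 0.26 in young and old NSN oocytes and Cdk1 at -0.37 in both, so depth moves in opposite directions with this pair, and its part in their correlation was not tested.

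Of the 45 pairs 7 had r above 0.3 and 4 below -0.3 in both groups. Ccnb1 and Ccnb2 varied together (0.49 young, 0.57 old), as did Ccnb2 and Plk1 (0.56 and 0.58), Cdk1 and Cdc25b (0.58 and 0.42) and Cdc25a and Mos (0.42 and 0.63). Ccnb3 varied against Cdk1 (-0.66 and -0.54), Plk1 (-0.51 and -0.52) and Mos (-0.53 and -0.50). By ranks (Spearman's rho) the value with Plk1 was -0.53 in young but -0.28 in old NSN oocytes. With Cdk1 and Mos rho was -0.45 and -0.43 in old NSN oocytes. Old NSN oocyte 41A had the highest Ccnb3 level, 184 CPM, and the lowest old NSN Plk1 level, 181 CPM. Its part in the old values was not tested. Wee2 varied against Mos (-0.52 and -0.53). All 4 of the negative pairs thus included Ccnb3 or Wee2.

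**Figure D4:**
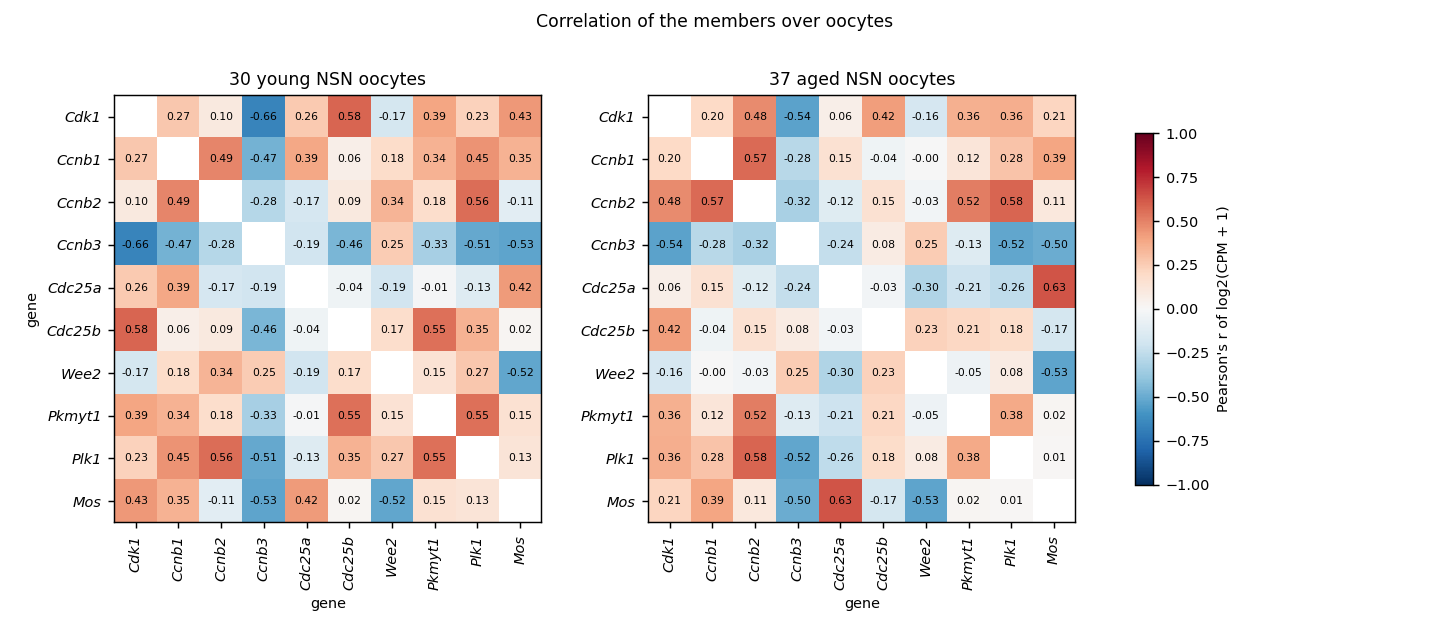
Pearson's r of log2(CPM + 1) between the 10 genes over 30 young NSN oocytes (left) and 37 old NSN oocytes (right), from -1 (blue) to 1 (red). Ccnb3 is negative with Cdk1, Plk1 and Mos in both panels, and Cdc25a with Mos is positive in both (0.42 and 0.63).

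The features most like 3 of the members over the 87 oocytes were sought among 5366 features with a mean count of at least 100. For Cdk1 these were Oas1c (r = 0.64), Oas1e (0.63) and Mxd4 (0.63). For Ccnb1 they were Gm839 (0.63), 6330578E17Rik (0.62) and Parp12 (0.61). For Mos the likeness over the 87 oocytes was closer, with Polr2d (0.83), Rplp0 (0.82) and Pcgf1 (0.81). Among old NSN oocytes these were at 0.85, 0.76 and 0.80. Among young NSN oocytes they were at 0.67, 0.64 and 0.66, where the 3 features of Ccnb1 were at 0.85, 0.70 and 0.66. Like Mos, all 3 were lower in SN oocytes, with log2 ratios of -0.22, -0.22 and -0.18 in young and -0.44, -0.36 and -0.32 in old oocytes.

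Other genes of the same switch were taken from a list of 26: CDK1's small subunits and activating kinase, further regulators of its phosphorylation, the Greatwall and PP2A arm, the MAP kinase arm and Cpeb1, which binds CPEs. Of these 25 had a mean count of at least 10, the exception being Rps6ka2, with log2 -0.40 (-0.86 to 0.05) between the ages. Between the ages 0 of 25 passed log2 0.32 in size, where 4.51% of all features did, and the median log2 ratio was 0.01. The highest were Bora, a cofactor that lets Aurora A activate PLK1, from 89.4 CPM in young to 103 CPM in old oocytes (0.21), and Rps6ka3 (0.16), and the lowest were Rps6ka1, from 15.2 to 12.8 CPM (-0.24), and Ppp2r2d (-0.14). The features taken for Cdk7 and Bora carry other names, Ccdc125 and 6720463M24Rik, in the paper's supplementary list of transcripts used for names. Cpeb1 stood at 1433 CPM in young and 1522 CPM in old oocytes (0.09).

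Between configurations the list differed more in old oocytes, as did all features. In young oocytes 1 of 25, Wee1, was higher and 0 were lower, with a median of -0.10, where 15.3% of all features were called. In old oocytes 2 of 25 were higher and 8 lower, with a median of -0.14. Counted in either direction this is 40%, near the 34.7% of all features called. By direction it was not near, since 14.7% of all features were lower and 2484 of 12408 were higher. The median of all features was -0.005, so the list leaned lower more than all features did. Those higher were Wee1, the somatic counterpart of Wee2, from 16.7 CPM in NSN to 38.9 CPM in SN oocytes (1.22), and Ensa, an inhibitor of PP2A, from 36.1 to 45.9 CPM (0.35). The 8 lower genes included Cks1b and Cks2, the small subunits of CDK1 (-0.56 and -0.39), all 3 parts of the CDK-activating kinase, Cdk7 (-0.40), Ccnh (-0.44) and Mnat1 (-0.43), and Aurka (-0.32), Bora (-0.35) and Ppp2r2a (-0.41). In SN oocytes between the ages 8% of the 25 were called, fewer than the 16% of all features. They were Wee1, higher (0.59), and Ccnh, lower (-0.34), in old oocytes. Cpeb1, Wee1, Ensa and the 8 lower genes were named after their values were seen.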

How the data were processed

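Single GV oocytes of young and old mice were profiled by scM&T-seq, and the RNA part was used here. The authors trimmed reads, aligned them to GRCm38 with HiSat2 and deposited raw counts per feature of an oocyte transcriptome assembly, without normalisation. The counting program is not given in the sources used here. Age came from the labels, configuration and 3 feature names from the study's supplementary tables, and the other 7 names from GENCODE M21 overlap (minimum Jaccard index 0.3). The oocyte without a configuration was left out and used as an alternative. The members and lists were chosen with earlier results of these data known.

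Counts were summed per group and scaled to CPM. A feature was called at a log2 ratio of at least 0.32 in size, among 12408 features with a mean count of at least 10. Named genes were the 10 members, the 2 highest and 2 lowest of the list by age ratio, and the 3 features most correlated with Cdk1, Ccnb1 and Mos. Cpeb1 and the list genes called between configurations or between ages in SN oocytes were named in addition, after their values were seen. Of 1896 pairs of libraries of the same age none agreed within sampling noise (lowest mean chi-square 2.34 per feature, about 1 being noise). Alternatives covered TMM factors (edgeR 4.0.16 in R 4.3.3), size factors, means and medians over oocytes, thinning, name suffix, leaving out runs or SN oocytes, all 88 oocytes, a pseudocount of 1 CPM, folds of 1.1 and 1.5 and filters. A log2 value that changed by over 0.1 was taken as moved. Calculations used Python 3.11.15, numpy 2.4.6 and scipy 1.17.1. They were tested on simulated counts, in which 200 of 12408 features changed by log2 0.32 up or down came out at medians of 0.30 and -0.31 for old over young. 0 value columns were without a sample.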

Additional observations from a re-analysis of the deposited data

Results flagged for a closer look

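The old oocyte 48A, which has no configuration and entered no comparison, stood above all 87 others for 3 members. Ccnb1 was at 1740.1 CPM (1697 to 1784), against at most 1642 CPM in the others. Ccnb2 was at 331 CPM (312 to 349.9), against at most 153 CPM. Plk1 was at 444 CPM (423 to 467), against at most 419 CPM. The study's methods leave out an oocyte as an outlier in a distance matrix without naming it, and 48A is the only oocyte without a configuration. Its other values are given with the other observations.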

How the results depend on the processing

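Between configurations the directions of Cdc25a, Mos and Cdc25b held under each setting run, and within single runs for Cdc25b in all 6 and for Cdc25a and Mos in 5. The number of members past log2 0.32 by age in SN oocytes became 1 in oocytes with suffix A and 2 at 1.1-fold (0 to 1 leaving out runs). Between configurations in young oocytes it became 0 by median CPM, thinned or at 1.5-fold, 2 without suffix and 4 at 1.1-fold (0 to 2 leaving out runs, median ratio -0.10 to 0.093). In old oocytes it became 4 by median CPM or at 1.1-fold and 0 at 1.5-fold (1 to 3 leaving out runs). The median log2 ratio of dispersion was 1.18 in NSN oocytes, 0.58 thinned, 1.15 with all 88 oocytes and 0.71 within runs (0.78 to 1.00 leaving out runs). Differences of within-oocyte log2 ratios moved as follows. Ccnb1 over Cdk1 by age was 0.017 in NSN oocytes from summed counts (0.0023 to 0.16 leaving out runs) and 0.32 in SN oocytes thinned (0.052 to 0.40), and by configuration -0.18 in young thinned (-0.088 to 0.27 leaving out runs in old). Ccnb2 over Ccnb1 by age in SN oocytes was -0.050 summed and -0.068 thinned (-0.10 to 0.21), and by configuration in young 0.16 summed and 0.15 thinned (-0.084 to 0.20, and -0.061 to 0.093 in old). Cdc25b over Wee2 by age in SN oocytes was -0.0056 summed (-0.25 to 0.10), and by configuration in young 0.19 summed (0.26 to 0.46, and 0.20 to 0.52 in old). Cdc25b over Pkmyt1 by age was -0.045 summed in all oocytes (-0.26 to 0.044), -0.31 thinned in NSN (-0.17 to -0.011) and 0.089 thinned in SN oocytes (0.0079 to 0.43). By configuration it was 0.055 summed and 0.055 thinned in young (0.14 to 0.33), and 0.40 summed and 0.45 thinned in old oocytes (0.42 to 0.78). The causes were not tested. Summing all features over a member's exons added none. No analysis paired across ages was possible, because oocyte names pair no samples across ages. Configurations were compared within single runs, without a test. With 8 old SN oocytes, and Pkmyt1 at as few as 22 counts, these groups are the least precise.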

Other observations

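Oocyte 48A stood below all 87 others for Ccnb3 at 17 CPM, Cdc25b at 31.8 CPM and Wee2 at 373 CPM, against lowest values of 51.8, 36.8 and 460.4 CPM in the others. It lay within their range for Cdk1 at 182 CPM, Cdc25a at 56.0 CPM, Pkmyt1 at 50.2 CPM and Mos at 829.6 CPM.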
